A study of Rattus norvegicus with 29 samples.

Results

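Transcripts that were silent in untreated primary rat renal proximal tubule epithelial cells and appeared after exposure to 1 of 4 toxicants are described here. A transcript entered the set when its estimated count was 0 in all 5 control libraries and at least 10 in each of the 3 libraries of at least 1 compound at 24 h. Of 28420 transcripts, 8576 were at 0 in all 5 controls, and 69 of those met the rule. "Switched on" means only that this rule was met. The 24 h treated libraries and the controls chose the set, so those values are a description and carry no test.

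Cells exposed to acetaminophen gave 3 libraries at 24 h and 3 at 6 h, and those exposed to gentamicin, TCDD or trichloroethylene likewise. The controls were 3 libraries at 24 h and 2 at 6 h. The labels name no other agent, no dose and no vehicle, and nothing in them says whether replicates came from separate cultures or animals. The p-values below therefore measure only the spread between these libraries, which may be technical. The cells were a primary culture, described by the labels as proximal tubule epithelium. The files do not pair their Ensembl transcript identifiers with gene names, so the cell type could not be checked against its markers. For the same reason transcripts are called by their length in bases, and 2 are also given by identifier.

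Proximal tubule cells line the first segment of the nephron, reabsorb most of what is filtered, and take up many drugs and toxicants from filtrate and blood. Acetaminophen is an analgesic that oxidising enzymes turn into a reactive quinone imine, which glutathione can bind. Gentamicin is an aminoglycoside antibiotic that these cells take up by endocytosis and hold in lysosomes. TCDD, a dioxin, is a ligand of the aryl hydrocarbon receptor, which enters the nucleus and acts there as a transcription factor. Trichloroethylene is a solvent whose glutathione conjugate is turned into reactive products in the kidney. A transcript counted at 0 in a bulk library may be made at a level below detection, in few cells or in none, and these cannot be told apart. Likewise, more cells of a type and more RNA per cell cannot be told apart.

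Library totals ran from 8243698 to 11446612 estimated counts. At this depth a count of 0 allows up to 3 counts in a library, which is used below as the floor. Floors and intervals cover counting error only. The silent transcripts were 30.2% of all those listed. Of them, 4863 were at 0 in every treated library too, and 3713 were counted in at least 1. The 69 transcripts are 1.86% of these 3713.

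Most transcripts met the rule with 1 compound only, though many were counted below it with others, as given below. Lists this small among the silent transcripts would overlap little in any case, so this is no result about the compounds. Gentamicin switched on 37 transcripts, which is 0.431% of the silent ones, and 35 of them met the rule with gentamicin alone. Acetaminophen switched on 17 transcripts, 0.198% of the silent ones, all with acetaminophen alone. TCDD also switched on 17 transcripts, again 0.198%, 15 of them with TCDD alone. The other 2 transcripts met the rule with both gentamicin and TCDD. Trichloroethylene switched on 0 transcripts: the silent transcript that came nearest had 5.88 counts in its lowest library. This 0 rests on single libraries: without control replicate 1 or 3 of 24 h, control replicate 2 of 6 h, or any 1 of the 3 trichloroethylene libraries, between 1 and 3 transcripts met the rule.

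**Figure D1:**
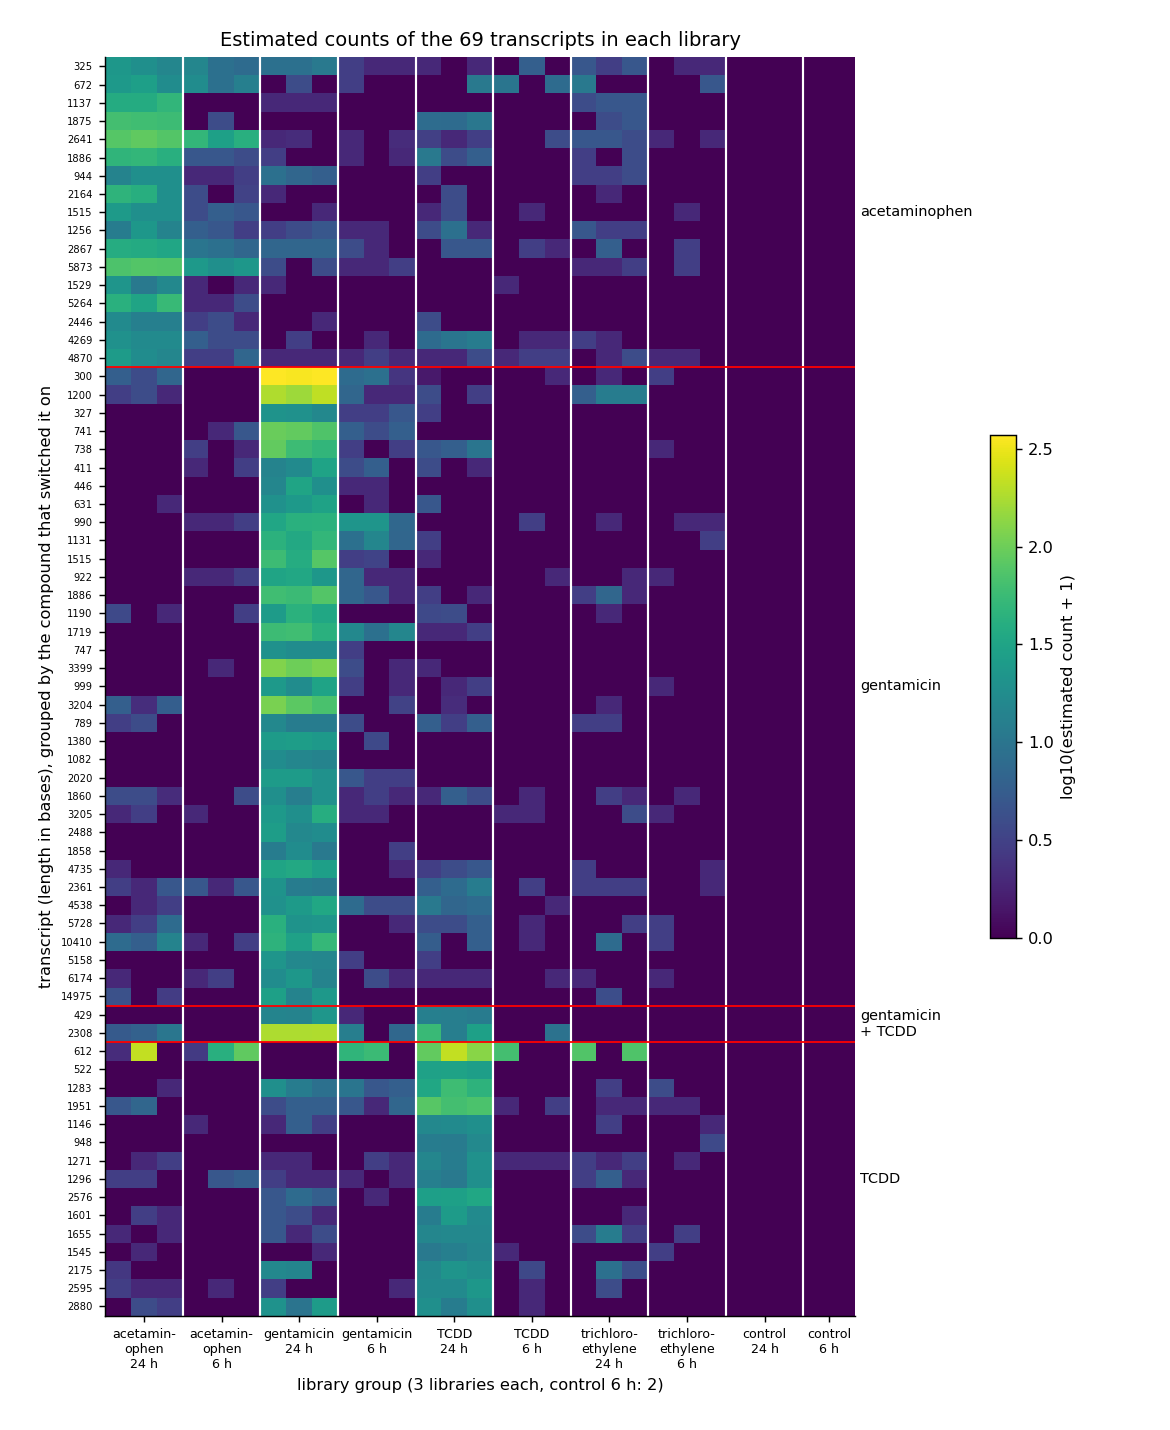
Estimated count of each of the 69 transcripts (rows, by length in bases, grouped by the compound that switched them on) in each of the 29 libraries (columns), as log10 of the count plus 1. The bright blocks are the values that chose the set, and the dark columns on the right are the 5 control libraries, where every transcript is at 0.

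The threshold lay within a continuous range of values. With acetaminophen the lowest counts inside it were 10, 11, 12 and 13, and the highest outside it were 9.23, 9, 9 and 8.39. With gentamicin the lowest inside were 10, 10, 11 and 11.5, and the highest outside were 9.29, 9, 9 and 9. With TCDD the lowest inside were 10, 10, 10.7 and 10.7, and the highest outside were 9, 8.19, 8.08 and 8.02. The zero in controls had near neighbours as well. Among transcripts with at least 10 counts in all 3 libraries, those counted in exactly 1 of the 5 control libraries numbered 25 for gentamicin, 16 for acetaminophen, 11 for TCDD and 6 for trichloroethylene.

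Many transcripts of the set also gave a few counts with compounds under which they missed the rule. At 24 h, 60, 56 and 55 of the 69 were above 0 in the gentamicin libraries, 48, 38 and 40 in the TCDD libraries, and 37, 36 and 35 in the acetaminophen libraries. The trichloroethylene libraries had 19, 30 and 23. Across the 24 h libraries of the other compounds, 12 transcripts were at 0 throughout, 25 stayed under 3 counts, 31 reached 3 to under 10, and 13 reached 10 or more in at least 1 library. The 25 include the 12. All these comparisons share the same control libraries, so each compound's own values are given side by side.

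**Figure D2:**
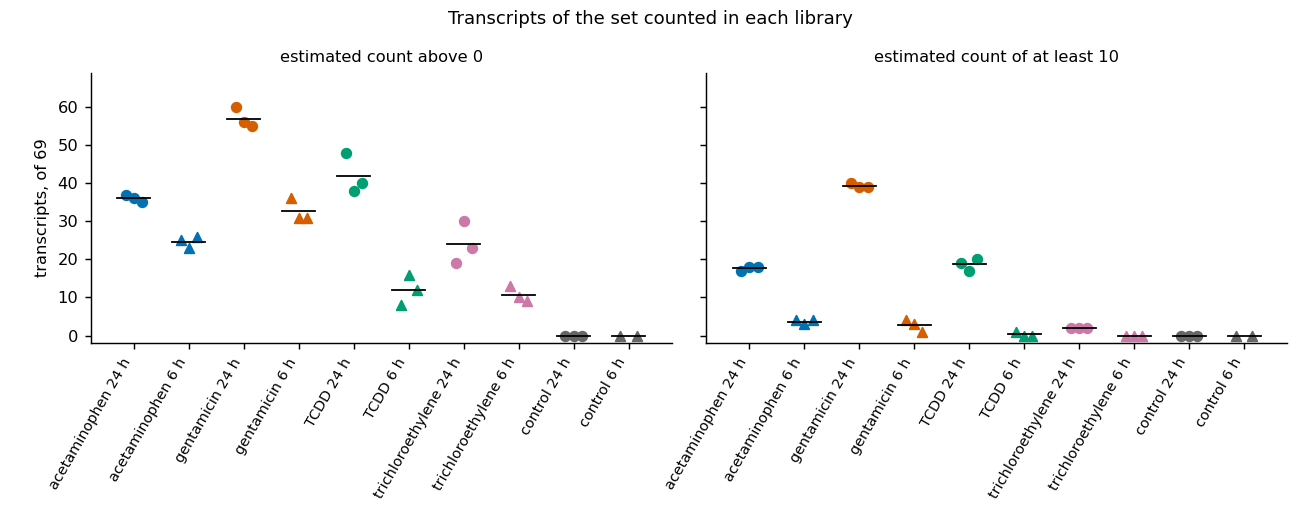
Number of the 69 transcripts with an estimated count above 0 (left) and of at least 10 (right) in each library, with circles for 24 h, triangles for 6 h and a bar for the group mean. Gentamicin at 24 h had the most, 55 to 60 above 0, and the 5 control libraries had 0 by the rule.

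With each compound the number of transcripts above 0 was larger in all 3 libraries of 24 h than in any of 6 h. The summed level of each list, in counts scaled to the library total (CPM), shows the same order. The 37 gentamicin transcripts together had 179.7 ± 6.01 CPM with gentamicin at 24 h and 9.39 ± 3.81 CPM at 6 h (SD, n = 3 each). The 17 acetaminophen transcripts together had 58.6 ± 1.24 CPM with acetaminophen at 24 h and 11.5 ± 1.49 CPM at 6 h. The 17 TCDD transcripts together had 52.9 ± 6.60 CPM with TCDD at 24 h and 3.17 ± 3.85 CPM at 6 h. The TCDD list at 6 h was unevenly spread, with 7.60, 0.572 and 1.36 CPM in its 3 libraries, and most of the first value came from 1 transcript of 612 bases, described below. Without it the other 16 had 38.01 ± 2.24 CPM with TCDD at 24 h and 0.758 ± 0.531 CPM at 6 h.

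Levels between transcripts are given in TPM, which divides counts by effective length and rescales each library to the same total. Most of the 69 were rare transcripts. Their mean TPM at 24 h with the compound that switched them on had a median of 2.25 and ran from 0.179 to 550.5. Under 1 TPM were 15 transcripts, 42 lay between 1 and 10, and 12 reached at least 10. Of those 12, gentamicin held 9, TCDD 2 and acetaminophen 1. Ranked among all transcripts counted in the same library, the set had a median percentile of 30.3, with a range from 7.88 to 98.4. The coefficient of variation over the 3 libraries had a median of 21.5% and ran from 1.58% to 53.2%, taking each transcript in the compound where it was higher.

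**Figure D3:**
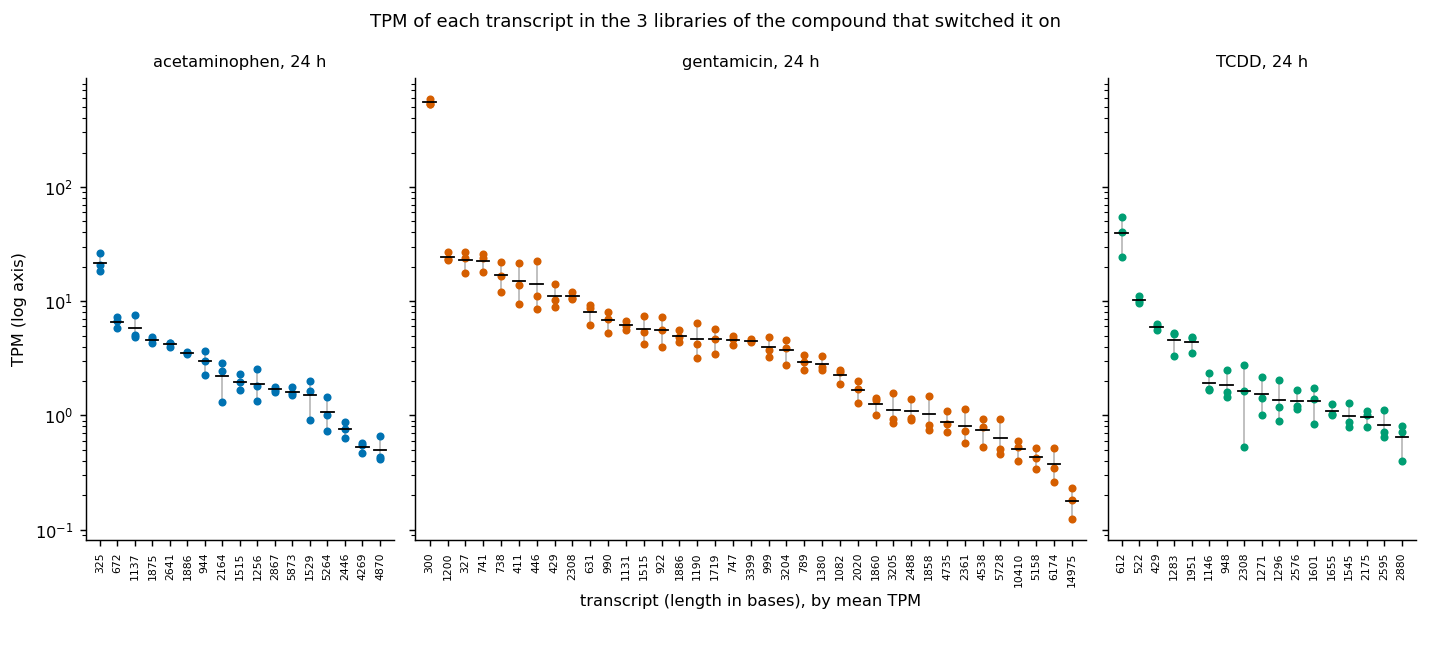
TPM of each transcript (named by its length in bases) in the 3 libraries of the compound that switched it on at 24 h, on a log axis, with a bar at the mean; the 2 transcripts of both gentamicin and TCDD appear in both panels. A single 300-base gentamicin transcript stands at 529 to 589 TPM, and no other exceeds 54.2 TPM in any of these libraries.

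The mean CPM over the 3 libraries at 24 h was compared with a floor of 3 counts in a control library. It was at least 3.34-fold higher for the lowest transcript and at least 98.6-fold higher for the highest, with a median of at least 6.48-fold. These bounds use the control library where that floor is highest in CPM. The rule required at least 10 counts in each of the 3 libraries at 24 h and silent controls. The lower end of these bounds was thus largely set by the rule. They describe the chosen set and carry no test. A median member had 18 counts in its lowest library.

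The transcripts were not short for silent ones. Their median length was 1601 bases, and 27.5% were under 1000 bases. Among all silent transcripts 63.0% were under 1000 bases, among the silent ones counted in a treated library 49.6%, and among all transcripts 33.8%. At equal TPM a longer transcript has more counts, so the rule itself bears on this. Of the 69, 19 had an estimated count more than 0.01 from a whole number in some library, which happens when reads are divided between similar transcripts. That is 27.5%, against 22.9% of the silent transcripts counted in a treated library and 37.04% of all counted ones. How much of those 19 belongs to each of several similar transcripts, from 1 locus or from close copies, is uncertain.

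The strongest member was ENSRNOT00000045189, the 300-base transcript, with gentamicin. It had 529, 589 and 534 TPM with gentamicin at 24 h, from 367, 348 and 372 counts. With acetaminophen at 24 h it had 5, 3 and 6 counts, with TCDD 0.5, 0 and 0, and with trichloroethylene 0, 1 and 0. No other library came near the 3 gentamicin libraries of 24 h. Its TPM rests on an effective length of 82.3 to 83.4 bases, because TPM counts only the positions at which a fragment can start. By counts alone it still led the set, ahead of the 1200-base transcript.

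The 1200-base transcript was second among those of gentamicin. It had 23.5, 23.1 and 27.0 TPM with gentamicin at 24 h, from 184, 155 and 212 counts. With trichloroethylene at 24 h it had 5, 11 and 11 counts, with acetaminophen 2, 3 and 1, and with TCDD 3, 0 and 2. Every 24 h compound group thus held a trace of it, while its gentamicin libraries lay far above. The 327-base transcript followed, with 23.9, 26.7 and 17.8 TPM from only 20, 19 and 15 counts, since its effective length was 99.2 to 101 bases.

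Among the others of gentamicin, the 3399-base transcript had 121, 100 and 116 counts with gentamicin at 24 h. It had 1, 0 and 0 with TCDD and 0 in every acetaminophen and trichloroethylene library of that time. The 741-base transcript had 95, 88 and 72 counts with gentamicin and 0 in every other 24 h library. The 2488-base and 1082-base transcripts were counted in no library but those of gentamicin at 24 h, with 26, 15 and 17 counts for the first and 17, 14 and 13 for the second. These 4 were chosen after their values were seen. Over the 37 gentamicin transcripts, 9 were at 0 in every 24 h library of the compounds that did not switch them on, 14 reached 3 to under 10 counts in at least 1 such library, 4 reached 10 or more, and the others were above 0 but under 3. At the low end, the 14975-base transcript, the longest of the set, had 0.231, 0.125 and 0.181 TPM from 28.3, 13.2 and 22.2 counts.

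The leading acetaminophen transcript had 325 bases. It had 26.3, 18.2 and 20.7 TPM with acetaminophen at 24 h, from 22, 18 and 14 counts. With gentamicin it had 8, 8 and 10 counts, so it missed the gentamicin rule narrowly. With trichloroethylene it had 4, 2 and 4 counts and with TCDD 1, 0 and 1. Its counts were thus graded over the compounds rather than limited to 1.

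The 672-base transcript came next, with 6.63, 7.24 and 5.81 TPM from 23, 27 and 17 counts. With each other compound it appeared in a single library of 24 h, with 0, 3 and 0 counts with gentamicin, 0, 0 and 10 with TCDD, and 10, 0 and 0 with trichloroethylene. The 1137-base transcript had 5.07, 4.83 and 7.58 TPM from 37, 37 and 48 counts. It had 3, 4 and 4 counts with trichloroethylene, 1, 1 and 1 with gentamicin, and 0 with TCDD. The 5264-base transcript was the only one of the 17 at 0 in every 24 h library of the other compounds, against 42, 31 and 53 counts with acetaminophen.

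With TCDD the highest mean belonged to ENSRNOT00000011278, a 612-base transcript, and it was erratic. It had 24.2, 54.2 and 40.3 TPM with TCDD at 24 h, from 88.4, 213 and 128 counts. With acetaminophen at 24 h it had 1.14, 217 and 0 counts, and with trichloroethylene 73.3, 0 and 71.7. With gentamicin at 24 h it was at or next to 0 in all 3 libraries. In 5 of the 8 treated groups it had more than 40 counts in some replicates and under 2 in others. Its estimated counts were not whole in 13 of the 15 libraries where it was above 0. Its group means rest on such libraries; it stays in the counts over the set below.

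The 522-base transcript was next with TCDD and behaved otherwise. It had 10.1, 9.65 and 11.03 TPM from 28.3, 28.98 and 26.8 counts, and it was at or next to 0 in every other library of the series. The 1951-base transcript had 80, 63 and 68 counts with TCDD at 24 h, and 3, 5 and 5 with gentamicin. The 2576-base transcript had 27, 28 and 33 counts with TCDD and 4, 7 and 5 with gentamicin. In both the TCDD libraries were all above the gentamicin ones. The 2880-base transcript overlapped between the compounds, with 18.1, 11 and 18 counts with TCDD and 19.6, 8.80 and 25 with gentamicin, and missed the gentamicin rule by 1 library.

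The 2 transcripts of both compounds differed in balance. The 2308-base transcript had 178, 177 and 181 counts with gentamicin at 24 h and 54.5, 11.5 and 28.3 with TCDD, or 10.4, 12.1 and 10.6 TPM and 2.75, 0.529 and 1.63 TPM. With acetaminophen it had 4.31, 5.34 and 9.23 counts and with trichloroethylene 0. The 429-base transcript was closer, with 13.4, 13.1 and 21.3 counts with gentamicin and 11.8, 11.5 and 10.7 with TCDD, and 0 in the other 24 h libraries. Both had counts that were not whole.

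Each list's traces with the other compounds at 24 h are given side by side. Of the 17 TCDD transcripts, 10 were above 0 in all 3 gentamicin libraries, the 2 shared ones included, 3 in all 3 trichloroethylene libraries and 2 in all 3 acetaminophen libraries. Of the 37 gentamicin transcripts, 11 were above 0 in all 3 TCDD libraries, the 2 shared ones included, 8 in all 3 acetaminophen libraries and 3 in all 3 trichloroethylene libraries. Of the 17 acetaminophen transcripts, 6 were above 0 in all 3 libraries of each of the other compounds, counted separately. Among all 8576 silent transcripts, 3.78% were above 0 in all 3 gentamicin libraries of 24 h and 2.83% in those of TCDD. The shares were 2.05% for acetaminophen and 0.711% for trichloroethylene. These 8576 include the 4863 at 0 in every library.

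Some of the transcripts were already counted at 6 h with the compound that switched them on at 24 h. Of the 17 acetaminophen transcripts, 13 were above 0 in all 3 acetaminophen libraries of 6 h, or 76.5%, against 0.781% of all silent transcripts. Of the 37 gentamicin transcripts, 12 were above 0 in all 3 gentamicin libraries of 6 h, or 32.4%, against 0.42% of all silent transcripts. Of the 17 TCDD transcripts, 1 was above 0 in all 3 TCDD libraries of 6 h, or 5.88%, against 0.152% of all silent transcripts. That 1 was the 1271-base transcript, with 1, 1 and 1 counts. Library totals at 6 h were 9237441 to 11446612 with acetaminophen, 8996315 to 10522652 with gentamicin and 8298542 to 9785424 with TCDD. None of the 69 was above 0 in all 3 trichloroethylene libraries of 6 h, against 0.128% of all silent transcripts. The part of depth in these shares was not tested.

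Transcripts at 0 in all 3 libraries of their own compound at 6 h numbered 1 of 17 for acetaminophen, 6 of 37 for gentamicin and 9 of 17 for TCDD. The same counts can be read by level at 24 h. Among those with at least 30 counts in all 3 libraries at 24 h, 5 of 7 acetaminophen transcripts and 7 of 12 gentamicin transcripts were above 0 in all 3 libraries at 6 h, and 0 of 3 TCDD transcripts. Among those with a lowest count from 10 to under 30, it was 8 of 10, 5 of 25 and 1 of 14, in the same order of compounds. The 1137-base acetaminophen transcript, with 37, 37 and 48 counts at 24 h, had 0, 0 and 0 at 6 h.

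Meeting the count of 10 as early as 6 h was rare. With acetaminophen 2 silent transcripts, or 0.0233%, had at least 10 counts in all 3 libraries at 6 h, and both belong to the set: those of 2641 and 5873 bases. With gentamicin 1 did, or 0.0117%, a 3933-base transcript outside the set with 19.8, 0 and 43.4 counts at 24 h and 29.2, 48.1 and 22.8 at 6 h. It missed the set because 1 gentamicin library of 24 h was at 0. With TCDD and with trichloroethylene 0 did.

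In each of the 69 transcripts all 3 libraries at 24 h were above all 3 at 6 h of the same compound, in CPM. For the 33 with more than 3 counts summed over the 6 h libraries, the ratio of 24 h to 6 h had a median of 7.01 and ran from 1.92 to 75.2. Without the erratic 612-base transcript the median of the other 32 was 7.45, with the same range. The lowest ratios belonged to acetaminophen. The 672-base transcript had 23, 27 and 17 counts at 24 h and 17, 8 and 12 at 6 h, a ratio of 1.92. The 325-base transcript had 22, 18 and 14 at 24 h and 14, 8 and 7 at 6 h, a ratio of 1.99. The highest belonged to gentamicin, where the 3399-base transcript had 121, 100 and 116 counts at 24 h and 3, 0 and 1 at 6 h, a ratio of 75.2. The 24 h values had to be high for the set to be formed, so this direction has no test.

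**Figure D4:**
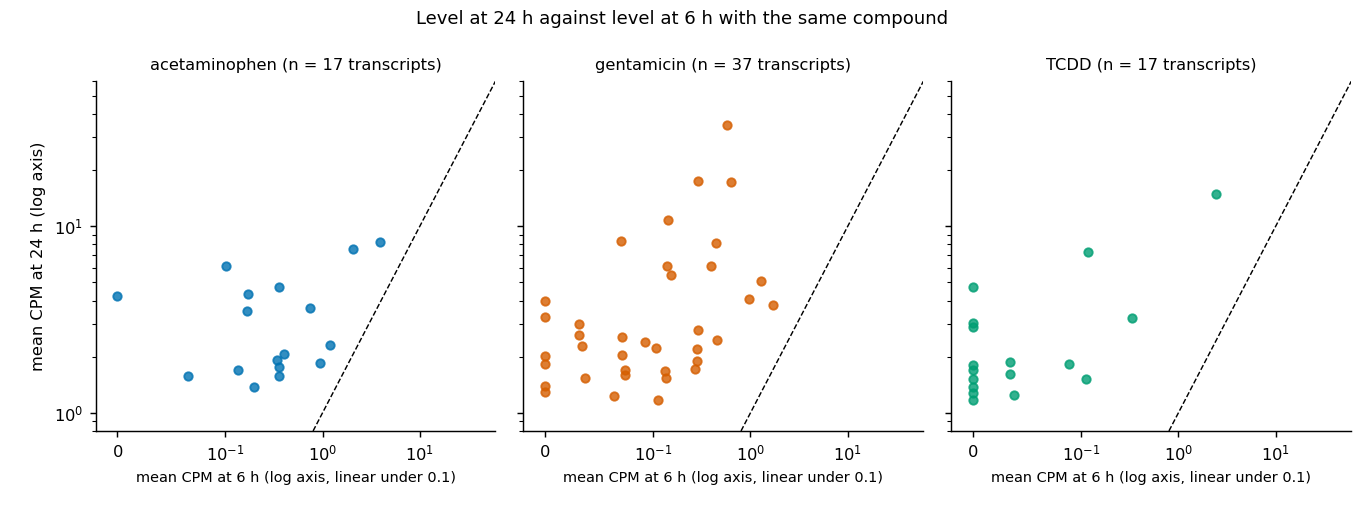
Mean CPM at 24 h (vertical, log axis) against mean CPM at 6 h (horizontal, log axis that is linear under 0.1) for the transcripts of each compound, with 1 point for each transcript and a dashed line where both are equal. All points lie left of the line; 9 of the 17 TCDD transcripts stand at 0 at 6 h, against 1 of the 17 acetaminophen transcripts.

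The 6 h libraries of the treated cells were not used by the rule, so compounds were compared with each other at 6 h. Estimated counts were fitted with edgeR's quasi-likelihood test over 15990 transcripts, and p-values were adjusted by Benjamini-Hochberg over all of them. The threshold was an adjusted p under 0.05, and 6 pairs of compounds were compared. Of the 69 transcripts 68 entered the test. Most of them passed the filter on low counts only through the 24 h libraries that chose them. The one left out was a 1858-base gentamicin transcript. The spread was estimated over all libraries, those that chose the set included. The adjusted p-values of these transcripts are therefore not independent of that choice. No comparison with control is given, since the zeros in the controls were chosen.

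Many transcripts outside the set also differed between compounds at 6 h. Between acetaminophen and gentamicin 10 transcripts were called higher with acetaminophen and 12 lower, against 26.1% and 28.3% of all tested transcripts. Between acetaminophen and TCDD 11 were higher and 0 lower, against 27% and 27.9%. Between acetaminophen and trichloroethylene 13 were higher and 0 lower, against 27.8% and 28.5%. Between gentamicin and TCDD 10 were higher and 0 lower, against 8.84% and 7.24%. Between gentamicin and trichloroethylene 9 were higher and 0 lower, against 9.72% and 7.49%. Between TCDD and trichloroethylene the share was 0% in both directions. With acetaminophen the share of the set that was called is below that of all transcripts in each direction, so those counts alone are no result about the set.

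Of the 17 acetaminophen transcripts, 9 were higher with acetaminophen than with gentamicin at 6 h and 0 lower, or 52.9%, against 26.1% of all tested transcripts. Against TCDD 9 were higher and 0 lower, or 52.9%, against 27% of all. Against trichloroethylene 10 were higher and 0 lower, or 58.8%, against 27.8% of all. DESeq2, run as an alternative test, called fewer. Of the whole set DESeq2 called 4 higher with acetaminophen than with gentamicin, where edgeR called 10. Against TCDD DESeq2 called 5 where edgeR called 11, and against trichloroethylene 8 where edgeR called 13. Over all transcripts DESeq2 called 8778, 8866 and 9092 of 15990 in either direction. How far these shares exceed those of all transcripts thus depended on the test. With only the 6 h libraries in the fit, 3 of the 69 transcripts passed the filter on low counts, and 2 were called in each acetaminophen pair, those of 2641 and 5873 bases. Across all lists and pairs, 20 of 65 calls lay at or under the floor of 3 counts. The level was small: their median TPM at 6 h was 0.218 with acetaminophen and 0.0104 with gentamicin, and it was 0 with either of the others. Over all tested transcripts the median TPM at 6 h lay between 12.2 (acetaminophen) and 13.9 (gentamicin and TCDD), with 13.6 for trichloroethylene.

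Of the 36 gentamicin transcripts tested, 9 were higher with gentamicin than with TCDD and 0 lower, or 25%, against 8.84% of all tested transcripts. Against trichloroethylene 9 were higher with gentamicin and 0 lower, or 25%, against 9.72% of all. DESeq2 called 6 of the whole set higher with gentamicin than with TCDD, where edgeR called 10. Against trichloroethylene DESeq2 called 4 where edgeR called 9. Over all transcripts DESeq2 called 2960 and 3219 of 15990 in either direction. Here too no DESeq2 share is given for the 36 alone or for 1 direction over all transcripts. As with the acetaminophen list, the shares above are a description and no result about these transcripts. Between acetaminophen and gentamicin 10 of the 36 were lower with acetaminophen, or 27.8%, near the 28.3% of all tested transcripts, so that count is no result about these transcripts. The 1 higher with acetaminophen, or 2.78% against 26.1% of all, was a 2361-base transcript. It had 4, 1 and 4 counts with acetaminophen at 6 h, against 0 in every gentamicin library of 6 h. Against the floor that is at least 0.957-fold, so no difference above the floor is shown. These transcripts too entered the test mainly through their 24 h libraries, and with only the 6 h libraries in the edgeR fit 3 of the 69 were tested and 0 called, both between gentamicin and TCDD and between gentamicin and trichloroethylene. Their median TPM at 6 h was 0.147 with gentamicin and 0 with each of the other compounds.

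Of the 17 TCDD transcripts 0 were called higher with TCDD at 6 h in any of the 3 comparisons that hold it. Compared with acetaminophen, 1 of the 17 was higher with acetaminophen, or 5.88%, against 27% of all tested transcripts. Compared with gentamicin, 1 was higher with gentamicin, or 5.88%, against 8.84% of all. Between acetaminophen and gentamicin 3 of the 17 were lower with acetaminophen, or 17.6%, against 28.3% of all. Each of these shares is below that of all transcripts, so the counts are no result about the TCDD transcripts. Between TCDD and trichloroethylene 0 of the 68 transcripts were called by edgeR, 0 had an unadjusted p under 0.05, and DESeq2 called 0. Over all 15990 transcripts edgeR also called 0 in that pair and DESeq2 called 4, with 732 higher and 700 lower at an unadjusted p under 0.05. The median TPM of the 17 transcripts with TCDD at 6 h was 0.

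In all, 65 differences in 27 transcripts were called. Of these, 45 had a mean of more than 3 counts in the higher group and 20 were at or under the floor in both groups. In 58 of the 65 all 3 libraries of the higher group lay above all 3 of the lower. A total of 23 differences in 12 transcripts were called under each alternative that could test them. The fit of the 6 h libraries alone could test only 6 of the 65, those of the 2641- and 5873-base transcripts, and called all 6. Every other alternative also drew on the 24 h libraries that chose the set, so it does not remove that choice. DESeq2 called fewer members: 4 higher and 10 lower between acetaminophen and gentamicin, 5 and 8 between acetaminophen and TCDD or trichloroethylene, and 6 and 4 between gentamicin and TCDD or trichloroethylene. Single libraries of 6 h also decided many calls. Between acetaminophen and gentamicin the 10 higher with acetaminophen became 5 without gentamicin replicate 3 and 6 without gentamicin replicate 2 or acetaminophen replicate 3, while the number lower was 11 or 12 without any 1 library. Between acetaminophen and TCDD 5 or 6 were left without acetaminophen replicate 2 or 3 or TCDD replicate 1 or 3, and between acetaminophen and trichloroethylene 7 were left without acetaminophen replicate 3 or trichloroethylene replicate 1. Between gentamicin and TCDD 4 or 6 were left without gentamicin replicate 1 or 2 or TCDD replicate 1 or 2. Between gentamicin and trichloroethylene 3 or 5 were left without gentamicin replicate 1 or any 1 of the trichloroethylene replicates.

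Among the transcripts called at 6 h, the 2641-base acetaminophen transcript had the largest counts. It had 50, 28 and 41 counts with acetaminophen, against 1, 0 and 1.13 with gentamicin, 0, 0 and 3 with TCDD, and 1, 0 and 1 with trichloroethylene. Every acetaminophen library was above every library of the other compounds. The ratio of summed CPM was 53.8 (95% exact interval 15.5 to 478) over gentamicin, with an edgeR adjusted p of 5.6e-07. It was 34.8 (11.6 to 171) over TCDD, with an edgeR adjusted p of 1.5e-06, and 52.9 (14.3 to 442) over trichloroethylene, with an edgeR adjusted p of 7.9e-07. At 24 h it had 78.2, 87 and 75.2 counts with acetaminophen.

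The 5873-base acetaminophen transcript had 23, 18 and 22 counts with acetaminophen at 6 h, against 1, 1 and 2 with gentamicin, 0, 0 and 0 with TCDD, and 0, 2 and 0 with trichloroethylene. It was higher by 3.83 ± 0.67 (log2, SE) than with gentamicin, with an edgeR adjusted p of 9.5e-05. Over TCDD it was at least 6.15-fold higher, with an edgeR adjusted p of 5.9e-06. Over trichloroethylene the ratio was 28.02 (7.44 to 236), with an edgeR adjusted p of 3.7e-05. Here too the acetaminophen libraries did not overlap with any other.

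The 1719-base gentamicin transcript had 0 counts in every acetaminophen, TCDD and trichloroethylene library of 6 h, and 15, 8 and 14 counts with gentamicin. Gentamicin was at least 4.27-fold higher than acetaminophen (edgeR adjusted p 4.6e-05), at least 3.77-fold higher than TCDD (edgeR adjusted p 0.00042) and at least 3.81-fold higher than trichloroethylene (edgeR adjusted p 0.00039). The 990-base gentamicin transcript had 1, 1 and 2 counts with acetaminophen, against 21, 21 and 6.28 with gentamicin, and it fell by 3.52 ± 0.81 (log2, SE) with acetaminophen relative to gentamicin (edgeR adjusted p 0.0012). Over TCDD its ratio with gentamicin was 22.1 (5.75 to 186), with an edgeR adjusted p of 0.0027. Both were present in all 3 gentamicin libraries of 6 h and had at most 2 counts in any other compound's library of that time. Neither could be tested with the 6 h libraries alone. Their adjusted p-values are thus not independent of the choice of the set.

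Most other early transcripts had few counts. The 1886-base acetaminophen transcript had 4, 4 and 3 counts with acetaminophen at 6 h, against 0 in every TCDD and trichloroethylene library (edgeR adjusted p 0.0055 and 0.0052). The 1256-base acetaminophen transcript had 5, 4 and 2 counts, again against 0 in every TCDD and trichloroethylene library (edgeR adjusted p 0.0042 and 0.0040). Against the floor these differences were at least 1.05-fold to at least 1.08-fold. The 1131-base gentamicin transcript had 8, 14 and 6 counts with gentamicin at 6 h, against 0 in every acetaminophen library (edgeR adjusted p 0.0011). A gentamicin transcript, also of 1886 bases, had 6, 4 and 1 counts with gentamicin, against 0 in every acetaminophen library (edgeR adjusted p 0.0065). Against the floor these 2 were at least 3.23-fold and at least 1.31-fold higher. No transcript named here could be tested with the 6 h libraries alone. These adjusted p-values are thus not independent of the choice of the set.

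The 300-base transcript, the strongest at 24 h, was weak at 6 h. It had 0 in every acetaminophen library of 6 h, against 7, 8 and 1.5 counts with gentamicin (edgeR adjusted p 0.00057). It could not be tested with the 6 h libraries alone, so this value is not independent of the choice of the set. With gentamicin it thus had 529, 589 and 534 TPM at 24 h and 10.01, 11.7 and 2.08 TPM at 6 h.

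At 6 h 1 of the 17 TCDD transcripts, or 5.88%, was higher with gentamicin than with TCDD, against 8.84% of all tested transcripts. This 1283-base transcript had 0 counts in every acetaminophen library of 6 h, against 9, 4 and 5 with gentamicin, which was at least 2.11-fold higher (edgeR adjusted p 0.0023). Gentamicin was also at least 1.86-fold higher than TCDD, whose 3 libraries were at 0 (edgeR adjusted p 0.012). At 24 h the same transcript had 18, 11 and 8 counts with gentamicin and 33, 58 and 45 with TCDD. The 1951-base TCDD transcript had 0 counts in every acetaminophen library of 6 h, against 4, 1 and 6 with gentamicin (edgeR adjusted p 0.0047). With TCDD it had 1, 0 and 2 counts at 6 h, and its difference between gentamicin and TCDD was not called. In both, all 3 TCDD libraries were above all 3 gentamicin libraries at 24 h. Neither could be tested with the 6 h libraries alone, so their adjusted p-values are not independent of the choice of the set.

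**Figure D5:**
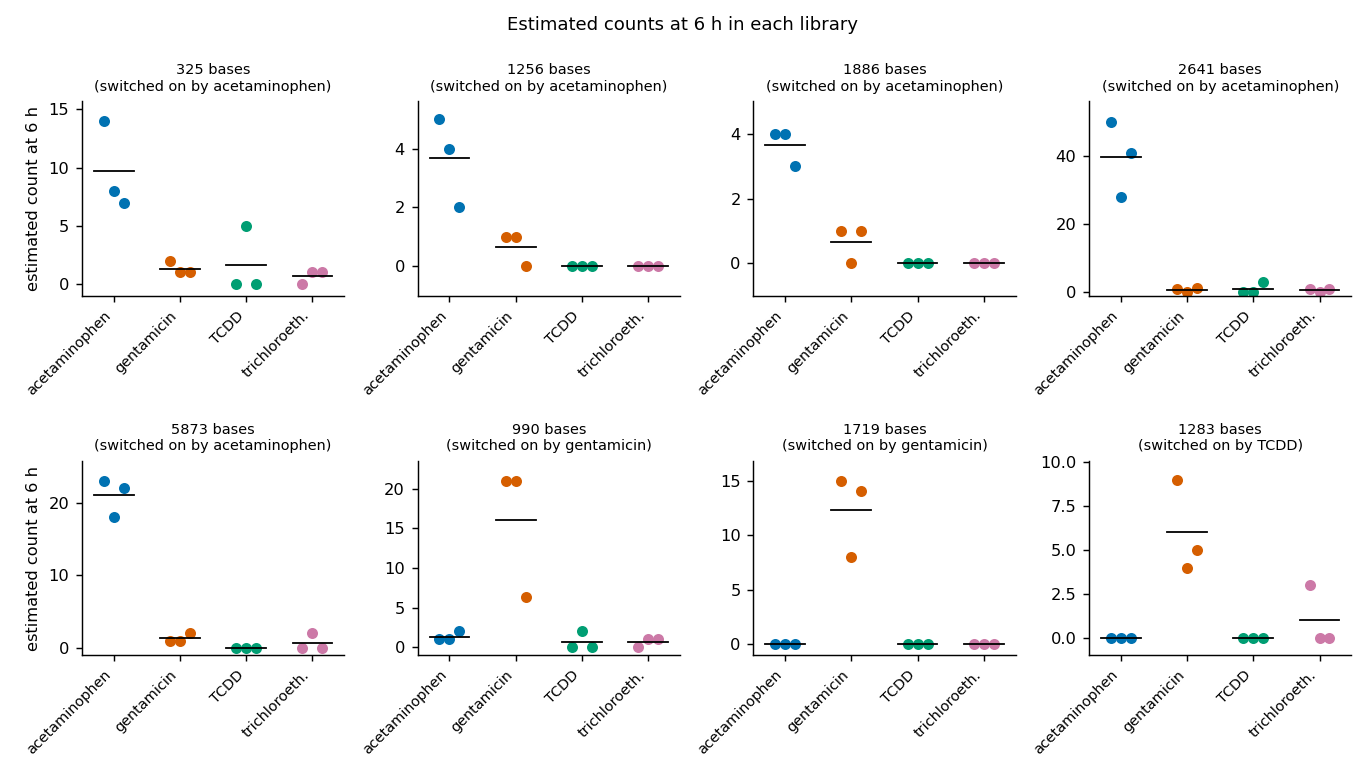
Estimated counts at 6 h in each library for the 8 transcripts with at least 2 differences called under each alternative that could test them, with 1 point for each library, a bar at the mean and an axis from each panel's own range. The 2641-base panel reaches 50 counts with acetaminophen, and the 1283-base transcript, switched on by TCDD at 24 h, is highest with gentamicin at 6 h. Of the 8, only those of 2641 and 5873 bases could be tested with the 6 h libraries alone.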

How the data were processed

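RNA of 29 libraries was sequenced. Reads were assigned to transcripts with kallisto 0.43, per the submitters' processing notes. The deposited estimated counts are the authors' expected counts per transcript, and the deposited TPM values are their scaling by effective length and library total, per the file headers. Not given in the sources used here: transcript release, strand setting and trimming. The members and lists were chosen with earlier results of these data known.

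Members were counted from the estimated counts as deposited. For tests, counts were rounded, filtered with filterByExpr at a minimum of 10 (15990 transcripts), scaled by TMM and fitted in 1 quasi-likelihood model with robust dispersion over all 10 groups, which left 19 residual degrees of freedom (edgeR 4.0.16, R 4.3.3; figures with matplotlib 3.10.9). The SE is the log2 difference divided by the square root of F. A fold over a compound at 0 sets that group at 3 counts in each library, and a fold over the controls uses the highest such floor of a control library. Where the lower group held 1 to 3 counts, the ratio of summed CPM has an exact binomial 95% interval. Steps were tested on simulated counts.

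Identifiers could not be matched to names: 0 genes of the reference table had an Ensembl identifier. The rule for that case printed 2 identifiers, those of the highest mean TPM at 24 h and of the highest at 6 h among members above 0 in all 3 libraries of a compound at 6 h. Values are given for the 3 highest members of each compound, both shared ones, and the members called in each alternative; the others named in the text were chosen after their values were seen. The lists planned by gene name and the cell type markers were not used here. Replicates of a group differed by more than counting noise, with 2.98 to 28.3 per degree of freedom in chi-square tests, so none was counted as a duplicate. The labels give no batch. Mean fragment length, read from the effective lengths, was 254 ± 21.0 bases with acetaminophen, 262 ± 2.65 with gentamicin, 234 ± 3.91 with TCDD, 255 ± 5.90 with trichloroethylene and 279 ± 9.60 in controls at 24 h (SD, n = 3 each); its part in the results was not tested.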

Additional observations from a re-analysis of the deposited data

How the results depend on the processing

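Depth limits these results: most members rest on few counts. With 5 counts required in each library 148 transcripts were switched on (33 by acetaminophen, 89 by gentamicin, 36 by TCDD, 3 by trichloroethylene). With 20 counts there were 30 (7, 18 and 5) and with 30 counts 22 (7, 12 and 3), each time 0 by trichloroethylene. With zeros asked of the 24 h controls only there were 109 (28, 58, 27 and 2), and with 0.5 TPM in place of 10 counts 194 (37, 121, 50 and 10), of which 61 were among the 69. With under 1 count allowed in each control trichloroethylene switched on 1, and with 1 CPM in place of 10 counts 66 of the 69 remained and no others came in. The cause was not tested beyond the construction of each rule. Leaving out 1 library gave 69 to 86 in all, 17 to 23 for acetaminophen, 37 to 55 for gentamicin, 17 to 22 for TCDD and 0 to 3 for trichloroethylene.

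Present at 6 h with at least 5 counts in all 3 libraries were 5 members of acetaminophen, 3 of gentamicin and 0 of TCDD, and with at least 10 counts 2, 0 and 0. Above 0 in at least 2 of 3 libraries were 21 of gentamicin and 3 of TCDD. Leaving out 1 library of 6 h gave 13 to 15, 13 to 16 and 1 to 2, the 2 without TCDD replicate 2 or 3.

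For calls at 6 h, the pairs are given in the order acetaminophen against gentamicin, TCDD and trichloroethylene, then gentamicin against TCDD and trichloroethylene. DESeq2 1.42.0 called 14, 5, 8, 6 and 4 of 68 members. A transcript to which it gave no adjusted p counted as not called, also among the alternatives above. Over all 15990 transcripts it called 8778, 8866, 9092, 2960 and 3219. In each of these pairs, those of gentamicin included, the share of members called is thus below that of all transcripts. A filter at 10 CPM, which left 5 members tested, called 3, 0, 0, 2 and 2. Over all 11511 transcripts it called 7528, 7588, 7721, 2556 and 2753. A fit of the 6 h libraries alone, which left 3 tested, called 2, 2, 2, 0 and 0. Over all 14469 transcripts it called 8870, 8964, 9184, 3011 and 3260. Leaving out 1 library gave 16 to 23, 5 to 11, 7 to 13, 4 to 10 and 3 to 10. Over all transcripts these fits called 7936 to 8796, 8001 to 8783, 8105 to 9111, 1810 to 2498 and 1785 to 2898. The pair of TCDD and trichloroethylene stayed at 0 to 0. Median-of-ratios factors and total counts kept all 65 called differences, and limma 3.58.1 on log2(TPM + 1) kept 46. No called difference was reversed by any of these alternatives. Replicate numbers did not pair the libraries: 1 of 18 same-number pairs had a correlation over 0.1, and 5 of 12 libraries correlated best with their own number. The replicate block called 20, 8, 9, 7 and 6 members, and 0 between TCDD and trichloroethylene. Over all 15990 transcripts it called 8612, 8678, 8917, 2424 and 2595, and 0 in that last pair.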
